A study of Mus musculus with 20 samples.

Results

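Kidneys of ARLmon/Y mice were compared with kidneys of wild type C57BL/6J mice that had been orchidectomised in the same way and had received vehicle, with no testosterone, for 4 days. The comparison takes in 10 of the 20 kidney libraries of the study. They are the 5 ARLmon vehicle libraries, GC078617 to GC078621, and 5 of wild type vehicle, GC078602 to GC078606. Libraries were chosen by their labels and not by any measured value. Of the 24762 genes with reads, the 15549 with enough of them were tested. The other 10 libraries come from the same genotypes, orchidectomised and given testosterone for 4 days. They are used here to look up what was found under vehicle. They also enter the fit, so the spread behind each vehicle p was estimated over all 20 libraries. Every mouse of the study was therefore without testes, the wild type controls included, and both genotypes are labelled C57BL/6J. The labels give no age, do not name the vehicle or the time between surgery and treatment, and leave unsaid whether every library is a separate animal. Each p therefore measures the spread between libraries, within the 4 groups of the study.

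Androgens such as testosterone and dihydrotestosterone act on genes that carry androgen response elements. In mice the kidney is strongly sexually dimorphic, and androgens act there most visibly in the straight proximal tubule, on transporters, cytochromes P450 and conjugating enzymes. Orchidectomy removes the main source of testosterone. The comparison asks which genes differ between the genotypes when that source is gone.

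The 10 libraries held 8618311 to 38101526 reads in genes, GC078606 being the shallowest and GC078605 the deepest, and 6.86% to 11.1% of the reads came from mitochondrial genes. The genotypes did not separate on the first component of the vehicle libraries (36.2% of the variance), which set GC078604, GC078618 and GC078621 apart from the rest of both genotypes. They differed on the second (23%), where the wild type libraries lay between -40.3 and 2.00 and the ARLmon libraries between -0.40 and 30.2, so that GC078618 fell within the wild type range. Library GC078620 held 1049 reads of 9 adrenal cortex genes, or 64.7 CPM (counts scaled to a common library total), against 6.03 to 10.7 CPM in the other 9 libraries, and it alone held reads of Cyp11b1, the last enzyme of corticosterone synthesis (157 reads). GC078606 stood apart by its plasma protein and tubular injury genes, given with those genes. The labelled tissue had its markers: all 12 markers of the convoluted proximal tubule, all 12 of the straight part, all 10 of the thick ascending limb and all 10 of the podocyte had enough reads to be tested.

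Between the genotypes, 680 genes differed (4.37% of the genes tested; edgeR quasi-likelihood test, Benjamini-Hochberg adjusted p below 0.05), 310 higher (1.99%) and 370 lower (2.38%) in ARLmon. The differences reached further downward. At 4-fold or more there were 52 lower and 19 higher genes, and at 2-fold or more 135 lower and 110 higher. Over all genes the median log2 change was 0.0049. The 5 ARLmon libraries did not overlap the 5 wild type libraries in 711 genes (4.57%), of which 453 also passed the test. The size of the count rested in part on single libraries: it was 1211 without GC078604 and 413 without GC078605. It was 330 when the 10 vehicle libraries were fitted alone, against 680 with the spread taken from all 20 libraries. With library size as the only scaling, 66.7% of the calls were higher in ARLmon, and on the deposited log2 values 59.5% were, against 45.6% here.

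**Figure D1:**
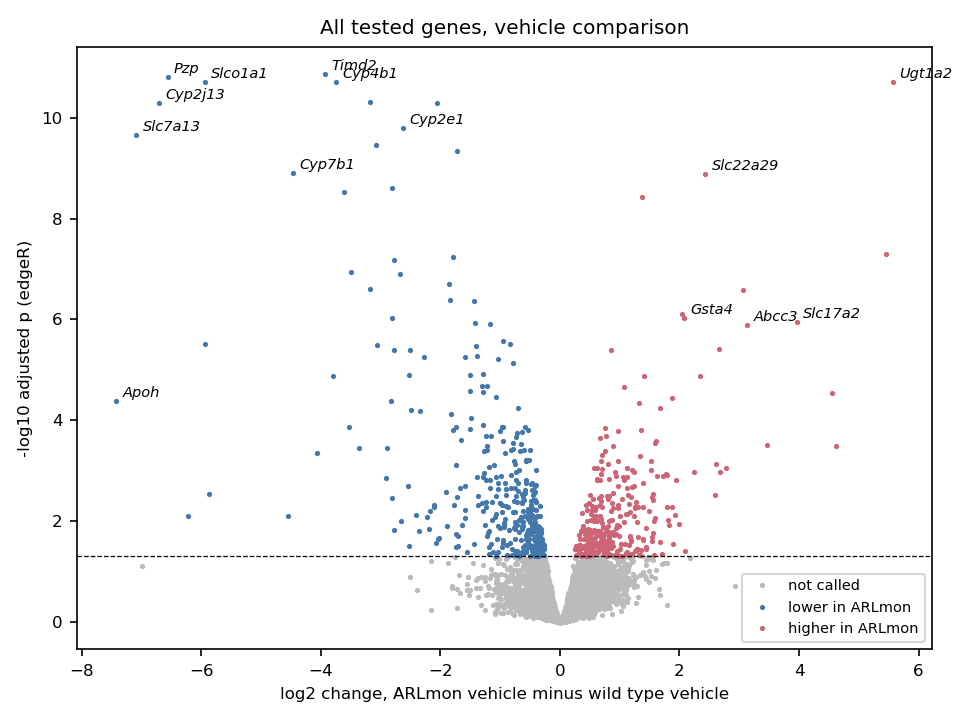
Log2 change of every tested gene (x axis, ARLmon vehicle minus wild type vehicle) against -log10 of the edgeR adjusted p (y axis), with the 0.05 threshold dashed. The points of largest change on the left include Apoh, Slc7a13, Cyp2j13, Pzp and Slco1a1, and Ugt1a2 stands farthest to the right.

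Many of the genes furthest down in ARLmon were transporters and enzymes of the proximal tubule that androgens are known to raise. Of 24 androgen-induced kidney genes, all tested, 16 were lower in ARLmon (all genes: 2.38%), none was higher and 8 did not pass the test. Their median log2 change was -1.79. The gene lists share members. Of these 24 genes, 21 are also on another list, as are 8 of the P450 genes and 9 of the transporters given below. Counts of different lists are therefore not independent. Slc7a13 (AGT1, an aspartate and cystine transporter of the straight proximal tubule, chr4:19818725-19842218 in GRCm38) stood at 209, 226, 148, 199 and 66 CPM in wild type, in the order GC078602 to GC078606. In the ARLmon vehicle libraries GC078617 to GC078621 it stood at 1.48, 1.37, 1.01, 1.15 and 1.26 CPM. Even GC078606, the lowest of the wild type, was far above every ARLmon library. The means were 169.8 ± 64.9 and 1.25 ± 0.184 CPM (SD, n = 5 each), a log2 change of -7.09 ± 0.42 (SE) with an adjusted p of 2.16e-10. Values after ± are SD over 5 libraries for CPM and SE for log2 changes throughout.

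Slco1a1 (Oatp1a1, an organic anion carrier, chr6:141907282-141946962) stood at 18.5, 15.4, 22.4, 18.3 and 22.9 CPM in wild type, in the same library order, and at 0.467, 0.428, 0.134, 0.574 and 0 CPM in ARLmon. The wild type libraries were close to one another, and GC078621 held no read of the gene. The log2 change was -5.94 ± 0.30 (adjusted p 1.96e-11). Timd2 (TIM-2, a cell surface receptor for H-ferritin, chr11:46668960-46707061) stood at 74.4, 85.9, 104, 81.4 and 78.3 CPM in wild type and 5.76, 5.9, 3.16, 6.66 and 6.21 CPM in ARLmon, a log2 change of -3.93 ± 0.18 (adjusted p 1.36e-11). The groups were far apart in every library, and wild type given testosterone stood at 99.7 ± 12.3 CPM (SD, n = 5) against 84.7 ± 11.4 CPM in wild type vehicle. Acsm3, a medium-chain acyl-CoA synthetase of mitochondria, stood at 198, 175, 147, 184 and 102 CPM in wild type and 11, 11.6, 19.5, 17.7 and 5.99 CPM in ARLmon (log2 -3.62 ± 0.25, adjusted p 2.92e-09). It shares part of its locus with Eri2 on the other strand, and the strand setting of the counting is not given in the sources used here.

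Pzp, a broad-range protease inhibitor related to alpha-2-macroglobulin (chr6:128483567-128526720), stood at 40.7, 35.9, 34.4, 29 and 14.3 CPM in wild type and 0.623, 0.171, 0.47, 0.23 and 0.165 CPM in ARLmon. All 5 ARLmon libraries were below 1 CPM. The log2 change was -6.56 ± 0.32 (adjusted p 1.55e-11), with the limit that an antisense gene lies within it. Azgp1, a secreted zinc-binding glycoprotein, stood at 77, 90.4, 89.5, 69.4 and 77.9 CPM and 8.41, 9.67, 10, 10.3 and 6.32 CPM (log2 -3.18 ± 0.17, adjusted p 4.71e-11), and its groups were likewise apart.

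**Figure D2:**
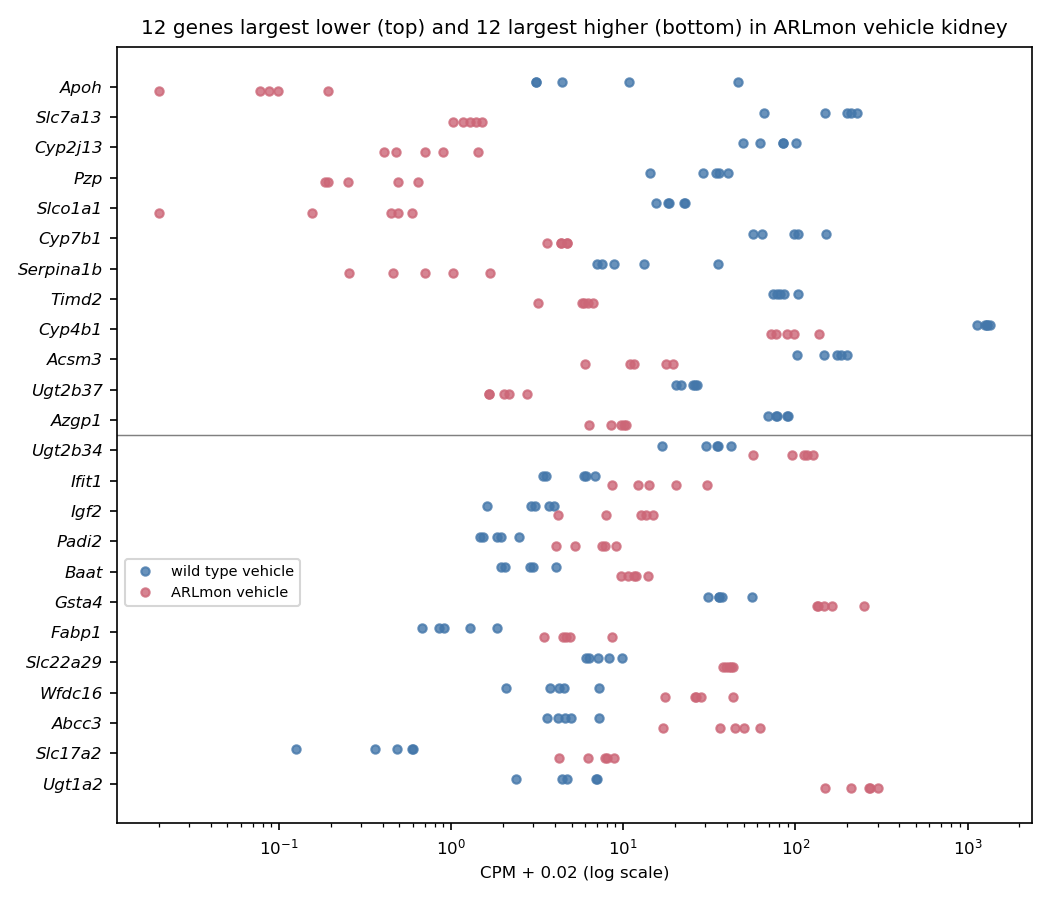
Level of the 12 genes largest lower (top) and 12 largest higher (bottom) in ARLmon vehicle kidney, as CPM plus 0.02 on a log axis, 1 point per library, blue for wild type vehicle and red for ARLmon vehicle. The groups do not overlap in any of these genes, which were chosen for that. Slc7a13 falls from 66 CPM or more to 1.48 CPM or less, and Ugt1a2 lies at 7 CPM or less in wild type and 149 CPM or more in ARLmon.

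Of 24 cytochrome P450 genes of fatty acid and xenobiotic metabolism, 8 were lower (all genes: 2.38%), 1 was higher (all genes: 1.99%; Cyp2d26, 0.98) and 15 did not pass, with a median of -0.51. Cyp4b1, a fatty acid and xenobiotic hydroxylase (chr4:115624725-115647723), stood at 1135, 1292, 1359, 1259 and 1297 CPM in wild type and 77.6, 98, 137, 72.2 and 89.6 CPM in ARLmon. Both groups were tight, and the log2 change was -3.74 ± 0.19 (adjusted p 1.96e-11). Cyp2j13 (chr4:96027534-96077546), of the arachidonic acid epoxygenase subfamily, stood at 62.4, 84.9, 84.8, 101 and 49.6 CPM in wild type and 1.4, 0.684, 0.874, 0.459 and 0.385 CPM in ARLmon (log2 -6.70 ± 0.37, adjusted p 5.05e-11). Cyp2e1, which oxidises ethanol and small solvents, went from 814 ± 143 to 132 ± 30.2 CPM (log2 -2.62 ± 0.15), and Cyp2d9, a steroid 16-alpha-hydroxylase with male-biased expression in mice, from 116 ± 26.6 to 16.6 ± 4.27 CPM (log2 -2.81 ± 0.19). Neither gene had overlapping groups. Cyp4a12a, which makes the vasoactive 20-HETE, had a log2 change of -3.18 ± 0.29, and reads shared with its near copy Cyp4a12b could be split between them.

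Genes of steroid turnover moved both ways. Of 22 tested, 4 were lower (all genes: 2.38%) and 3 higher (1.99%), with a median of -0.25. Cyp7b1, which hydroxylates oxysterols and the androgen metabolite 3-beta-diol (chr3:18071950-18243338), stood at 98.2, 57, 64.2, 151 and 103 CPM in wild type and 4.67, 4.71, 4.3, 3.56 and 4.34 CPM in ARLmon. The wild type libraries spread more widely than the ARLmon libraries, with no overlap, and the log2 change was -4.46 ± 0.30 (adjusted p 1.23e-09). Hsd17b2, which inactivates testosterone and estradiol, was lower (-1.28 ± 0.27, adjusted p 0.00633), as was Akr1c14, a 3-alpha-hydroxysteroid dehydrogenase (-2.22 ± 0.49, adjusted p 0.00824). Hsd17b14, another 17-beta-hydroxysteroid dehydrogenase, was higher (5.5, 7.47, 8.31, 6.45 and 3.87 CPM in wild type and 14.8, 32.2, 18.2, 21.6 and 9.95 CPM in ARLmon; log2 1.59 ± 0.24, adjusted p 2.88e-04).

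Promoters of Cyp4b1 and Pzp are shown because these genes are among the 12 largest lower and the window around their start holds AGAACA, the hexamer arm of the androgen response element, in capitals. The windows run from 250 bases before to 50 after the gene start (RefSeq, GRCm38.p6), 5′ to 3′ along the gene, at chr4:115647672-115647971, minus strand for Cyp4b1 and chr6:128526671-128526970, minus strand for Pzp.
Cyp4b1: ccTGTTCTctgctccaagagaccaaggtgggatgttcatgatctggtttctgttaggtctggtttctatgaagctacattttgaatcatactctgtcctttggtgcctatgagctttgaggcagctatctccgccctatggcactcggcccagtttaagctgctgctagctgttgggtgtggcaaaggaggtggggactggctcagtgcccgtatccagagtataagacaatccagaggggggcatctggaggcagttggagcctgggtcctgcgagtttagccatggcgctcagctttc
Pzp: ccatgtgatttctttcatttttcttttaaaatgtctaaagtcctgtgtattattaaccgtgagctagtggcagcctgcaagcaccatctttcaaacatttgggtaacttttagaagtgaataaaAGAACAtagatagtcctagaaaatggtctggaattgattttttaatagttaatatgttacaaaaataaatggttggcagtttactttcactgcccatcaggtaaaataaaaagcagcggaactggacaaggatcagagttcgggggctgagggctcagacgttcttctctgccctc
The hexamer was searched on both strands (AGAACA or TGTTCT) and begins 248 bases before the start in Cyp4b1 and 126 in Pzp. It is common: 21.3% of 27025 genes hold it in such a window. Of the 12 largest lower genes, 10 matched the RefSeq table and 5 of these held it (50%), as did 4 of 9 matched among the 12 largest higher (44.4%) and 2 of 12 matched among the androgen-induced genes called lower (16.7%). The full element, AGAACA and TGTTCT with 3 bases of any kind between them, was in none of these windows and in 0.0111% of all genes. A match describes letters and no binding was measured.

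Among 37 organic anion and cation transporters, 9 were lower (all genes: 2.38%) and 5 higher (1.99%), with a median of -0.22. The neighbouring paralogs of the Slc22 family on chromosome 19 moved apart. Slc22a30 stood at 71.8, 93.4, 62.8, 51.4 and 24 CPM in wild type and 10.1, 11.4, 8.67, 7.92 and 6.82 CPM in ARLmon (log2 -2.77 ± 0.31, adjusted p 4.05e-06). Slc22a29 stood at 8.23, 9.82, 7.13, 6.32 and 6.03 CPM and 41.1, 42.3, 38.1, 43.1 and 39.3 CPM (log2 2.44 ± 0.16, adjusted p 1.29e-09). Both pairs of groups were without overlap, in opposite directions. Slc22a28 was lower (-1.38) and Slc22a27 higher (1.79), and reads from such close copies can be misassigned. Slco3a1, a carrier of prostaglandins and thyroxine, was lower (124 ± 23.9 and 45.8 ± 7.5 CPM, log2 -1.43 ± 0.14), and so was Slc22a6, the OAT1 carrier of the basolateral membrane (log2 -0.76 ± 0.12).

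Of that list, the largest change upward was that of Abcc3 (MRP3, an exporter of glucuronides and bile salts, chr11:94343295-94392997), at 4.58, 3.6, 4.16, 4.95 and 7.17 CPM in wild type and 36.4, 62.5, 50, 44.6 and 17 CPM in ARLmon. GC078621 was the lowest ARLmon library and still exceeded all of wild type. The log2 change was 3.13 ± 0.32 (adjusted p 1.28e-06). Its relative Abcc4 was also higher (log2 1.32 ± 0.17). Slc17a2, of the phosphate and urate carrier family, stood at 0.463, 0.104, 0.571, 0.58 and 0.342 CPM and 6.23, 8.81, 7.79, 8.04 and 4.18 CPM (log2 3.97 ± 0.40, adjusted p 1.11e-06).

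Conjugating enzymes split evenly. Of 28 glucuronosyl-, glutathione and sulfotransferases, 6 were higher (all genes: 1.99%) and 6 lower (2.38%), with a median of 0.19. Ugt1a2 (a UDP-glucuronosyltransferase, chr1:88200601-88218997) stood at 6.89, 7, 2.36, 4.37 and 4.67 CPM in wild type and 302, 149, 271, 267 and 209 CPM in ARLmon, and every ARLmon library was far above every wild type library. The log2 change was 5.57 ± 0.28 (adjusted p 1.96e-11). Ugt1a genes share their last exons, so reads there cannot be given to 1 of them. Gsta4, which conjugates 4-hydroxynonenal, stood at 37.6, 36.2, 55.6, 30.9 and 35.8 CPM and 146, 164, 134, 136 and 252 CPM (log2 2.08 ± 0.21, adjusted p 9.53e-07), and Ugt2b34 was higher as well (log2 1.67 ± 0.22). Lower were Ugt8a, the galactosyltransferase of cerebroside synthesis (log2 -3.07 ± 0.19), Ugt2b37 (log2 -3.53 ± 0.50) and Ugt2b38 (log2 -1.84 ± 0.17).

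Of 12 genes listed as lowered by androgens or higher in female kidney, 5 were higher in ARLmon (all genes: 1.99%), 1 was lower and 6 did not pass, with a median of 0.66. Their summed level overlapped between the genotypes, from 1347 to 2833 CPM in wild type and from 1647 to 2641 CPM in ARLmon, and GC078621 was the lowest ARLmon library. The higher members were Ugt1a2, Abcc3 and Slc22a29, given above, Prlr and Kynu. Prlr, the prolactin receptor, stood at 114, 122, 52.2, 49.7 and 50.3 CPM in wild type and 194, 227, 223, 192 and 108 CPM in ARLmon. GC078602 and GC078603 were the highest wild type libraries and GC078621 the lowest of ARLmon, so the groups overlapped, and the log2 change was 1.28 ± 0.26 (adjusted p 0.00427). Kynu, kynureninase, stood at 28.7, 34.8, 28.4, 27.1 and 31.4 CPM and 46.1, 46.9, 49.7, 49 and 47.2 CPM without overlap (log2 0.67 ± 0.14, adjusted p 0.0078). Fmo5, a flavin monooxygenase, went against the list, at 58.4, 60.2, 56.7, 80.7 and 55.3 CPM in wild type and 16.2, 18.4, 22.4, 14.6 and 15 CPM in ARLmon (log2 -1.85 ± 0.17, adjusted p 1.99e-07). In these wild type kidneys it was not lower with androgen, at 335 ± 77.4 CPM under testosterone and 62.3 ± 10.5 CPM under vehicle.

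Other genes among the 12 largest higher were at low levels in wild type. Wfdc16, a whey acidic protein domain gene, stood at 4.53, 4.23, 7.21, 3.71 and 2.05 CPM in wild type and 28.3, 43.6, 26.1, 26.5 and 17.5 CPM in ARLmon (log2 2.66 ± 0.29). Fabp1, the liver fatty acid-binding protein, went from 1.09 ± 0.465 to 5.19 ± 1.98 CPM (log2 2.34 ± 0.28), and Baat, which joins bile acids to taurine or glycine, from 2.76 ± 0.845 to 11.5 ± 1.56 CPM (log2 2.04 ± 0.20). Padi2, a peptidylarginine deiminase, and Igf2, an insulin-like growth factor, had log2 changes of 1.87 ± 0.24 and 1.78 ± 0.31. Igf2 overlaps an antisense gene.

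Not every classical androgen target passed the test. Kap, the kidney androgen-regulated protein of the proximal tubule (chr6:133849851-133853762), stood at 13352, 11889, 28612, 10162 and 9972 CPM in wild type and 5705, 15542, 9945, 5494 and 4236 CPM in ARLmon. GC078604 and GC078618 were the highest of their groups, and the groups overlapped. The log2 change of -0.85 ± 0.31 did not pass the test (adjusted p 0.137), though its 95% interval, not adjusted for the number of genes, was -1.50 to -0.205. Without GC078618 it was -1.22 and did (adjusted p 0.0156). Odc1, ornithine decarboxylase, the first enzyme of polyamine synthesis and strongly induced by androgens in mouse kidney, stood at 187, 206, 262, 189.5 and 186 CPM in wild type and 233, 213, 192, 168 and 204 CPM in ARLmon. Its log2 change was -0.03 (95% interval -0.27 to 0.21, adjusted p 0.925), and its sign was positive with library size as the only scaling and on the deposited log2 values. Gusb, beta-glucuronidase, had a log2 change of -0.01 (adjusted p 0.962), and Hsd17b11, a lipid droplet dehydrogenase, one of -0.29 (adjusted p 0.0736). None of the 14 tested genes of polyamine metabolism passed the test, where 4.37% of all genes did, so the count is near that share.

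Fkbp5, a co-chaperone of steroid receptors that androgens and glucocorticoids both raise, stood at 35.5, 40, 47.6, 84.1 and 128 CPM in wild type and 26.9, 31.1, 26.4, 26.4 and 36.1 CPM in ARLmon. GC078605 and GC078606 were the highest, and the log2 change was -1.18 ± 0.28 (adjusted p 0.0161), or -1.08 with an adjusted p of 0.0553 without GC078605. Of 14 tested targets shared with the glucocorticoid receptor, Fkbp5 alone passed, a count near the 4.37% of all genes that did.

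In peroxisomal and mitochondrial fatty acid oxidation 4 of 31 genes were lower (all genes: 2.38%) and none higher, with a median of -0.05. Acox3, a peroxisomal oxidase of branched-chain acyl-CoA, stood at 224 ± 24.7 CPM in wild type and 130.5 ± 11.3 CPM in ARLmon, without overlap (log2 -0.78 ± 0.09, adjusted p 7.47e-06). Crot, the peroxisomal carnitine octanoyltransferase, stood at 293, 271, 215, 393 and 353 CPM and 176, 157, 170.3, 163 and 153 CPM (log2 -0.90 ± 0.17). Among 21 acyl-CoA genes, 5 were lower (all genes: 2.38%) and 2 higher (1.99%). The higher genes included the mitochondrial acetyl-CoA synthetase Acss1 (0.70 ± 0.11), while the cytosolic Acss2 was lower (-0.59 ± 0.11). Elovl6, which lengthens palmitate, was higher in ARLmon (54.3, 30.2, 26.2, 29.7 and 30.1 CPM in wild type and 59.6, 64.2, 97.8, 81.9 and 65.7 CPM in ARLmon; log2 1.11 ± 0.19, adjusted p 8.94e-04). Aadat, the kynurenine aminotransferase, was higher too (log2 1.55 ± 0.31, adjusted p 0.00377). None of 20 genes of the unfolded protein response, 17 of the circadian clock or 32 of proliferation passed. Over all genes 4.37% passed, so these counts are near that share, which also stands beside the 2 lists that follow. The 74 nuclear-encoded genes of the respiratory chain and 74 of 75 ribosomal protein genes had changes above 0, with medians of 0.28 and 0.23, while 0 and 1 of them passed the test. Summed over the list, the respiratory chain ranged from 20301 to 31312 CPM in wild type and from 22368 to 34271 CPM in ARLmon, and the ribosomal genes from 7540.0 to 12395 and from 8697 to 14348 CPM, with GC078618 the highest in both. The part of these libraries in the result was not tested.

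Of the hormone and transport genes in the other lists, few passed. Calb1, calbindin-D28k of the distal tubule, stood at 684, 565, 773, 622 and 501 CPM in wild type and 1192, 1051, 1092, 1195 and 1145 CPM in ARLmon, without overlap (log2 0.85 ± 0.18, adjusted p 0.00623). Agt, angiotensinogen, was lower, at 94.1, 120.1, 141, 127 and 154 CPM in wild type and 65.2, 104, 71.6, 60.1 and 59.9 CPM in ARLmon, with GC078618 the highest of ARLmon (log2 -0.82 ± 0.15, adjusted p 0.00222). Foxq1, a forkhead transcription factor, was higher (log2 1.14 ± 0.22, adjusted p 0.00303), and Psap, the precursor of the lysosomal saposins, lower (log2 -0.66 ± 0.10, adjusted p 3.00e-04).

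Interferon-stimulated genes were higher in ARLmon. These genes are switched on by type I and type II interferons and encode antiviral and antigen-processing proteins. All 28 tested had changes above 0, 22 were higher (all genes: 1.99%) and none lower, with a median of 0.99. Ifit1, which binds foreign RNA (chr19:34640871-34650009), stood at 5.86, 6.06, 6.85, 3.4 and 3.53 CPM in wild type and 30.5, 20.3, 8.53, 12.1 and 14.1 CPM in ARLmon. Irf7, a transcription factor of the response (chr7:141262706-141266481), stood at 17.2, 18.3, 22.5, 11.3 and 13.8 CPM and 61.5, 66.7, 24.7, 29.6 and 36.4 CPM. GC078617 and GC078618 were the highest and GC078619 the lowest of ARLmon, and the groups did not overlap in either gene. The log2 changes were 1.72 ± 0.30 (adjusted p 0.00126) and 1.39 ± 0.25 (adjusted p 0.00176). Gbp3, a guanylate-binding GTPase, stood at 17, 11.8, 11.2, 11 and 7.06 CPM and 40.1, 35.4, 32, 46.4 and 23.9 CPM (log2 1.60 ± 0.24, adjusted p 2.60e-04), and Ifit3 at 16.9, 20.6, 19.6, 16.2 and 14.7 CPM and 49.4, 55.3, 22.8, 26.2 and 31.9 CPM (log2 1.07 ± 0.19, adjusted p 0.00156).

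The summed level of the list was 309 to 405 CPM in wild type vehicle libraries and 492 to 875 CPM in ARLmon vehicle libraries. Leaving out GC078617 or GC078618 left 18 and 19 genes called. None of the 11 tested macrophage markers passed (all genes: 4.37%), and their median was 0.14. They summed to 177 to 228 CPM in wild type and 203 to 239 CPM in ARLmon. Lymphocyte markers summed to 27.1 to 143 CPM in wild type and 25.9 to 218 CPM in ARLmon, with GC078620 the highest and GC078617, the highest interferon library, the lowest. Of 12 tested lymphocyte markers, 11 had changes above 0 (median 0.63) and 1 was called higher (all genes: 1.99%), Ms4a1 (CD20 of B cells). Its log2 change was 1.54 ± 0.39 (adjusted p 0.0251). Ms4a1 had few reads, 26 in wild type and 53 in ARLmon over 5 libraries each, with means of 0.235 and 0.718 CPM. The call on Ms4a1 was lost without GC078605, GC078617, GC078619 or GC078621 (adjusted p 0.0533 to 0.0977). The part of these cells in the result was not tested.

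**Figure D3:**
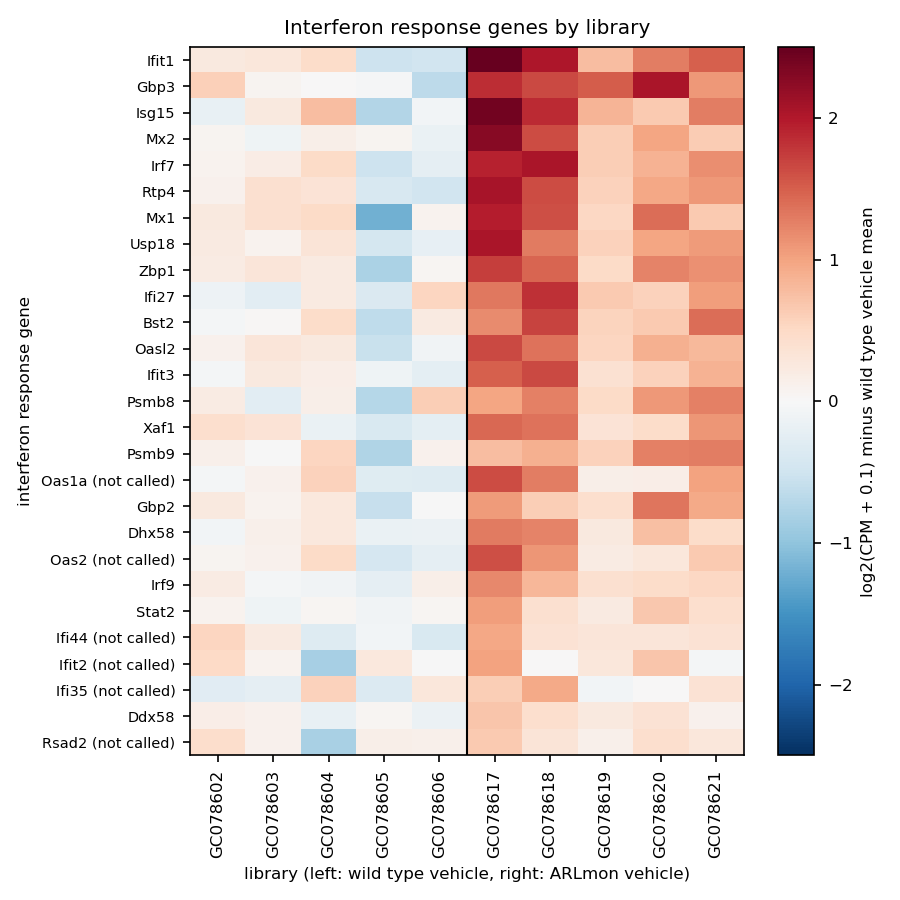
Level of 27 of the 28 tested interferon response genes (rows) in the 10 vehicle libraries (columns), as log2(CPM + 0.1) minus the mean of the wild type vehicle libraries, red above and blue below it, with colour cut at 2.5 either way. Red fills the ARLmon columns, deepest in GC078617 and GC078618 and palest in GC078619.

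Promoters of Isg15, a ubiquitin-like modifier (log2 1.49 ± 0.31, adjusted p 0.00623), and Ifit1 are shown because they hold more than 1 match to GAAA, 2 bases of any kind and GAAA again, the core of the interferon-stimulated response element, in capitals. Isg15 lies at chr4:156200769-156201068, minus strand and Ifit1 at chr19:34640639-34640938, plus strand, in windows made as above, and TTTC spaced in the same way is the motif on the other strand.
Isg15: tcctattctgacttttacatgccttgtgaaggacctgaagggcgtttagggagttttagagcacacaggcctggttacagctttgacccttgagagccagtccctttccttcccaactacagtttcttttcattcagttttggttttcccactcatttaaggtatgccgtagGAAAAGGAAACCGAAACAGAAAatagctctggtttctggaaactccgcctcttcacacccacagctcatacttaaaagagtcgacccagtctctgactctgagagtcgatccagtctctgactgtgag
Ifit1: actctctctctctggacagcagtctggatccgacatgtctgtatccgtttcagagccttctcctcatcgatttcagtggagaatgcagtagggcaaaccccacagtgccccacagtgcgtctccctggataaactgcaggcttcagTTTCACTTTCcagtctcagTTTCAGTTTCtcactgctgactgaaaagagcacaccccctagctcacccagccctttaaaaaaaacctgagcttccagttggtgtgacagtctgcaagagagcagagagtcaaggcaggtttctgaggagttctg
Isg15 has 3 matches that overlap one another, beginning 78, 72 and 66 bases before the start, and Ifit1 has 2, beginning 104 and 85 bases before it. Of the 22 interferon genes called higher, 14 matched the RefSeq table and 8 of these held the motif (57.1%), against 3.99% of 27025 genes, 0 of the 10 matched largest lower genes and 2 of the 9 matched largest higher genes (22.2%).

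Genes of plasma proteins, made mainly in liver, had a median log2 change of -0.88, and 1 library weighed heavily in several of them. Summed over the list, wild type GC078606 stood at 1362 CPM and the other wild type libraries at 303 to 465 CPM. The ARLmon libraries, at 312 to 427 CPM, lay within the range of those others. Of 13 tested, 4 were lower (all genes: 2.38%), 1 was higher (all genes: 1.99%; Gc, the vitamin D-binding protein, 1.16) and 8 did not pass. Apoh, beta-2-glycoprotein I (chr11:108343354-108414396), which is not on that list and was among the 12 largest lower genes, stood at 3.09, 3.08, 4.36, 10.8 and 46.2 CPM in wild type and 0.0779, 0.171, 0.0672, 0.0574 and 0 CPM in ARLmon. It had 1041 reads in wild type and 5 in ARLmon, a ratio of 134.5 after scaling by total reads, with a 95% counting interval of 57.5 to 415. GC078606 was the highest, and the log2 change of -7.42 ± 0.97 (adjusted p 4.10e-05) was -6.18 without it (adjusted p 5.10e-07). Serpina1a, an alpha-1-antitrypsin, stood at 25.4, 26.6, 26, 25.7 and 56.5 CPM in wild type and 3.74, 4.79, 4.3, 4.3 and 1.98 CPM in ARLmon (log2 -3.06 ± 0.33, adjusted p 3.21e-06). Its near copy Serpina1b, also outside the list, had a log2 change of -4.07 ± 0.65 (adjusted p 4.47e-04), or -3.46 without GC078606 (adjusted p 0.000913).

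The fibrinogen chains rested most on that library. Fga stood at 31.4, 32.9, 30.3, 60.4 and 369.9 CPM in wild type and 15.1, 19.7, 15.9, 20.3 and 11.4 CPM in ARLmon, and Fgg at 19.7, 18.6, 24.9, 30.8 and 323 CPM and 11.4, 11.8, 9.74, 15.2 and 11.5 CPM. Their log2 changes of -2.65 and -2.78 (adjusted p 0.0102 and 0.0148) were -1.24 and -0.98 without GC078606 (adjusted p 0.0332 and 0.0552). Fibrinogen genes are also made by injured tubule cells, and the other 18 tested genes of tubular injury did not pass (all genes: 4.37% passed). Summed over the 20 genes of that list, fibrinogen chains included, GC078606 stood at 5236 CPM and the other wild type libraries at 2249 to 3278 CPM. The ARLmon libraries lay between these levels, at 3469 to 4167 CPM. The part of GC078606 in the injury genes was not tested. Ttr, transthyretin, was lower without dependence on GC078606 (log2 -1.14 ± 0.23, adjusted p 0.00427).

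Among the lists of nephron segment markers, only that of the straight proximal tubule held genes called lower. Of 12 straight-part markers, 6 were lower (all genes: 2.38%) and none higher (median -0.73), against none either way of 12 convoluted-part markers (median -0.10) and none of 10 thick ascending limb markers (median -0.03). Against the wild type mean, the median straight-part marker stood at -0.14 on the log2(CPM + 1) scale in GC078618 and between -0.62 and -1.10 in the other 4 ARLmon libraries; wild type GC078606 stood at -0.48. Slc7a13, Cyp7b1 and Slc22a30, given above, are straight-part markers that are also androgen-induced. The others on the list were Acy3, an aminoacylase (log2 -0.87 ± 0.18), Atp11a, a phospholipid flippase (log2 -1.14 ± 0.25), and Aqp1, the water channel (log2 -0.61 ± 0.12). Aqp1 is not confined to the straight part. In whole kidney, fewer cells of a type and less RNA per cell cannot be told apart. All 11 intercalated cell markers and all 10 of the distal convoluted and connecting tubule had changes above 0, with medians of 0.50 and 0.48, and 4 and 2 of them were called higher. Over all genes the share called higher was 1.99%, which also stands beside the marker lists that follow. The intercalated count was 0 to 6 when single libraries were left out and 8 with library size as the only scaling. Slc4a1, the anion exchanger of intercalated and red blood cells, was highest in GC078621 (101, 70, 79.7, 71.3 and 198 CPM in ARLmon), and without that library its log2 change went from 0.88 to 0.51 (adjusted p 0.113). All 10 podocyte markers had changes above 0 (median 0.30), and 1 passed, Synpo, the actin-associated synaptopodin (log2 0.38 ± 0.09, adjusted p 0.0124, or 0.0519 without GC078603). Of 12 principal cell markers, 8 had changes above 0 (median 0.14), and 1 passed, the transcription factor Gata3 (log2 0.54 ± 0.11, adjusted p 0.00619). None of the markers of endothelium (12), smooth muscle and renin cells (10), fibroblasts (14) or adipocytes (10) passed. All 10 adipocyte markers (median 0.91) and 13 of the 14 fibroblast markers (median 0.25) had changes above 0. Adipocyte genes summed to 137 to 576 CPM in wild type and 211 to 931 CPM in ARLmon.

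**Figure D4:**
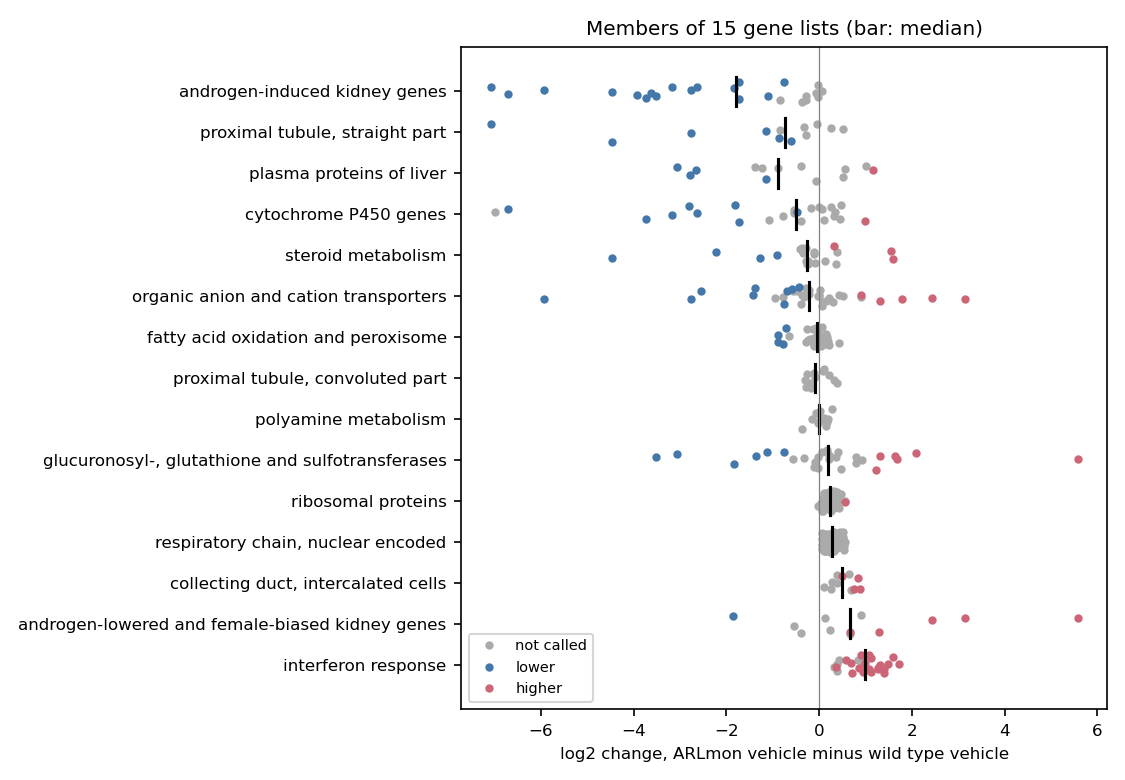
Log2 change (x axis, ARLmon vehicle minus wild type vehicle) of the tested members of 15 gene lists, 1 point per gene, with the median as a bar, blue for lower, red for higher and grey for not called. Androgen-induced genes spread to -7.09 with a median of -1.79, and interferon response genes lie above 0 with a median of 0.99.

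The same genotypes under testosterone share no library with the vehicle comparison, though both comparisons use the spread estimated over all 20 libraries. There, 4842 genes differed (31.1%; 15.6% higher, 15.5% lower). Of the 680 genes called under vehicle, 589 were called in the same direction under testosterone, which is 86.6% of the vehicle calls and 12.2% of the testosterone calls. Another 85 were not called under testosterone, and 6 were called in the opposite direction (Agt, Ces2e, Mettl21b, Slc18a1, Slc41a1 and Vwa1). All 12 largest lower and all 12 largest higher genes kept their direction. For androgen-induced genes the count lower went from 16 under vehicle to 22 of 24 under testosterone, and for interferon response genes the count higher was 22 and 18 of 28. The plasma protein list did not keep its direction. Under testosterone 6 of its 13 genes were higher in ARLmon and 2 lower, with a median of 1.03, against -0.88 under vehicle.

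The difference of the genotype effects, testosterone minus vehicle, was tested for each gene and passed for 741 (4.77%), 170 of them called under vehicle. For 119 of these the gene was lower in ARLmon under vehicle and further lower under testosterone, and for 38 higher and further higher. Slco1a1 had the largest such difference among the 12 largest lower genes, -6.06 (95% interval -7.43 to -4.70) on the log2 scale (adjusted p 3.76e-06), its level being 1431 ± 274 CPM in wild type testosterone and 0.348 ± 0.115 CPM in ARLmon testosterone libraries (SD, n = 5 each). Odc1, level between genotypes under vehicle within the interval given above, stood at 1509.7 ± 119.5 and 188 ± 26.8 CPM under testosterone, a difference of -2.97 (95% interval -3.32 to -2.63) (adjusted p 2.69e-10). Prlr went the other way, at 5.23 ± 1.12 and 224 ± 57.8 CPM, with a difference of 4.13 (95% interval 3.31 to 4.96) (adjusted p 8.25e-07).

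For some genes the interval of that difference held 0. Timd2 had a difference of -0.03 (95% interval -0.53 to 0.48), and Cyp2d9 one of -0.10 (95% interval -0.64 to 0.44). Gsta4 and Ugt2b34 had differences of 0.24 (95% interval -0.36 to 0.84) and 0.10 (95% interval -0.55 to 0.75). For Ifit1 the difference was -0.76 (95% interval -1.68 to 0.17) and for Gbp3 0.23 (95% interval -0.49 to 0.96), neither passing the test (adjusted p 0.426 and 0.812). Intervals that hold 0 do not show that the effects were alike.

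**Figure D5:**
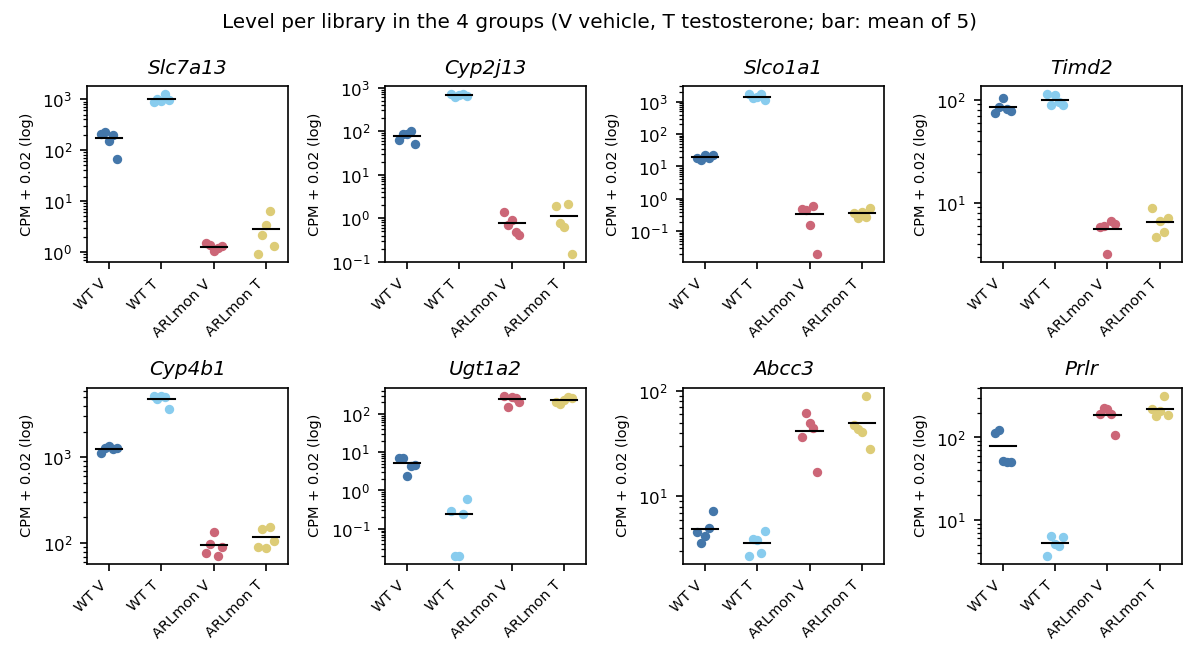
Level per library of 8 genes in the 4 groups (WT V wild type vehicle, WT T wild type testosterone, ARLmon V and ARLmon T), as CPM plus 0.02 on log axes, 5 points a group with a bar at the mean. Slco1a1, Cyp2j13 and Cyp4b1 are higher in WT T than in WT V and low in both ARLmon groups, Timd2 overlaps between the wild type groups, and Ugt1a2 and Prlr are lowest in WT T.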

How the data were processed

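Poly(A) RNA of kidney was sequenced from stranded libraries in 4 groups of 5. Per the submitters' processing notes the tools were FastQC 0.11.7, HISAT2, SAMtools 1.5, HTSeq 2.7.14 (as listed), DESeq2 and the mm10 build; settings, annotation and strand of counting are not given in the sources used here. The authors deposited raw counts per gene for pairs of groups, and log2 values of all 20 libraries whose normalization is not stated; the latter were used only as an alternative. Columns carry library codes that give the group and no replicate number. The pair tables held equal values for shared libraries and were joined, with 12045 values of genes absent from a pair table set to 0.

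The quasi-likelihood fit used edgeR 4.0.16 in R 4.3.3 (TMM factors, filterByExpr, 4 group means over 20 libraries, 16 residual degrees of freedom), and the test was checked on simulated data. A call is a Benjamini-Hochberg adjusted p below 0.05 over 15549 genes. SE is the absolute log2 change divided by the root of the F statistic. CPM values use TMM library sizes. Precision follows depth, and counting intervals (95%) cover counting error only. Positions are from GENCODE M21 (GRCm38), which matched 95.2% of tested genes by symbol and need not be the authors' annotation.

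Named genes are Kap and Odc1, the 12 largest each way among called genes whose libraries did not overlap and whose higher mean reached 5 CPM, up to 4 called members of each of 49 gene lists with the smallest p. Results for some other genes that the rule names are not reported here. Unnamed genes are counted only. The comparison, members and lists were chosen with earlier results of these data known. Isg15, Gusb, Hsd17b11, Cyp4a12a, Cyp2d26, Slc22a6, Slc22a27, Slc22a28, Abcc4, Acy3, Atp11a, Gc, Cyp11b1 and the 6 genes of opposite direction were named after their values were seen. Alternatives were RLE factors, library size, other filters, DESeq2 1.42.0, limma-voom (limma 3.58.1), the vehicle libraries alone, abundant genes left out, a minimum change, and libraries left out.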

Additional observations from a re-analysis of the deposited data

Results flagged for a closer look

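In 162 groups of 5 libraries, over 81 named genes, 20 held 1 library far from the other 4, by Dixon's criterion of 0.71 of the range, which chance meets in about 1 of 20 groups. In wild type vehicle GC078604 was the highest for Kap (28612 CPM), Odc1 (262.5), Gsta4 (55.6) and Ugt2b38 (696). GC078606 was the highest for Apoh (46.2 CPM), Serpina1b (35.4), Serpina1a (56.5), Fga (369.9) and Fgg (323). GC078605 was the highest for Fmo5 (80.7 CPM) and Aqp1 (1441), and GC078602 for Elovl6 (54.3). In ARLmon vehicle GC078621 was the highest for Fabp1 (8.58 CPM), Gsta4 (252), Dmrt2 (15.2) and Slc4a1 (197.5) and the lowest for Slc1a1 (202) and Acot12 (65.8). GC078619 was the lowest for Timd2 (3.16 CPM) and GC078618 the highest for Agt (104).

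The genotype effect differed between testosterone and vehicle for 30 of the 81 named genes (edgeR, adjusted p below 0.05), against 4.77% of all genes. Most of the 81 were named because they were called under vehicle, and the vehicle change enters this difference. The count is therefore no result about these genes as a set. For 27 of the 30 the genotype effect was larger in the same direction under testosterone. Differences below 0, in log2 and testosterone minus vehicle, were -6.06 for Slco1a1, -3.85 for Acsm3, -2.97 for Odc1, -2.53 for Cyp2j13, -2.47 for Ugt2b37, -2.33 for Pzp and -2.31 for Fmo5. They were -1.90 for Cyp7b1 and Ugt2b38, -1.89 for Cyp2e1, -1.87 for Slc22a30, -1.76 for Kap, -1.61 for Cyp4b1, -1.42 for Fkbp5, -1.29 for Slco3a1 and Acot12 and -1.17 for Crot. The smallest were -0.98 for Azgp1, -0.97 for Ugt8a, -0.94 for Me1 and -0.84 for Acox3. Differences above 0 were 4.32 for Ugt1a2, 4.13 for Prlr, 4.04 for Fgg, 3.39 for Kynu and 2.67 for Slc22a29. They were 2.00 for Baat, 1.73 for Serpina1a, 1.38 for Agt and 0.61 for Acss1. Fgg, Serpina1a and Agt were the exceptions to the 27, being lower in ARLmon under vehicle. From vehicle to testosterone, the log2 change went from -2.78 to 1.26 (not called) for Fgg, -3.06 to -1.34 for Serpina1a and -0.82 to 0.56 for Agt. Without GC078606 the vehicle change of Fgg was -0.98 (adjusted p 0.0552).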

How the results depend on the processing

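In all, 139 counts were taken under an alternative, of which 127 stayed within 1.5 times the main count. They cover the vehicle comparison, the testosterone comparison, the genes called in both, the difference of the genotype effects and the gene lists named below. The count of genes called was 678 with RLE factors, 825 with library size, 567 with no filter, 678 with 1 CPM in 5 libraries, 1013 with DESeq2, 785 with limma-voom, 679 without the 10 most abundant genes, 894 without GC078604 and GC078618, and 699 on the deposited log2 values. It was 330 with the 10 vehicle libraries alone and 245 with a minimum log2 change of 1. With single libraries left out it ran from 413 to 1211, androgen-induced genes lower from 15 to 17, P450 genes lower from 8 to 10, straight-part markers lower from 6 to 7, interferon genes higher from 16 to 22 and intercalated markers higher from 0 to 6. Intercalated markers higher numbered 8 with library size and 1 with the vehicle libraries alone. The Odc1 log2 change switched sign, at 0.0402 with library size, 0.0288 without GC078620, 0.0516 without GC078604 and GC078618, and 0.0499 on the deposited log2 values, and ran from -0.0872 (without GC078617) to 0.0714 (without GC078604) with single libraries left out; the cause was not tested. Of 79 named genes called, 54 kept call and direction under every alternative that gave them a value, apart from the minimum log2 change of 1, which 48 of the 79 reached, and 23 lost the call without some 1 library. No paired analysis was possible because the columns carry library codes and no replicate number. Differences among genes with few reads are limited by depth, least in GC078605 and most in GC078606.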
